A study of Mus musculus with 73 samples.

Results

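The Ifitm genes measured here were Ifitm1, Ifitm2, Ifitm3 and Ifitm6, 4 of the 23994 mouse gene rows of an FPKM table, and their transcripts were followed across 73 single lung phagocytes. The 4 genes were selected on measured values of these same cells, because earlier results had shown them near absent from cells with the alveolar macrophage markers Ear1, Car4 and Plet1. That contrast is therefore given as a description, without a test. Every cell came from 1 adult Csf1r-GFP mouse on the B6 background, aged 10 weeks, in which green fluorescent protein is driven by Csf1r, the gene of the colony stimulating factor 1 receptor. The left lung had been removed 7 days earlier (pneumonectomy), and the cells were taken from the right lobes. They had been sorted as CD45+, CSF1R-GFP+ and F4/80+; the labels also name Ly6G, with neither a plus nor a minus. Single cells had been loaded on a Fluidigm C1 chip and their polyadenylated RNA was amplified with the SMARTer kit. All 73 cells thus formed 1 group, cells of an unoperated lung were not analysed here, and cells of 1 mouse are not replicates, so no p-value was computed.

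Interferon-induced transmembrane (IFITM) proteins are small membrane proteins that stop enveloped viruses from fusing with the cell. IFITM3 and IFITM2 act mainly in endosomes and lysosomes and IFITM1 mainly at the plasma membrane. The genes are induced by interferons through the interferon-stimulated response element (ISRE), and many cells also carry them without infection. IFITM3 is known above all as a barrier to influenza virus in the lung.

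The 4 genes lie together on mouse chromosome 7. In the mm10 build (GRCm38), RefSeq places Ifitm2 at chr7:140954837-140959686 on the minus strand, Ifitm1 at chr7:140967429-140969827 on the plus strand, Ifitm3 at chr7:141009590-141010744 on the minus strand and Ifitm6 at chr7:141015812-141016892 on the minus strand. The promoter stretches below, from RefSeq on GRCm38.p6, are the 60 bases before the 1 start that the RefSeq promoter table gives for each gene, printed 5′ to 3′ on the strand of the gene. For Ifitm1 (start 140968076) and Ifitm2 (start 140955961) that start lies inside the full span of the gene given above, so other starts of these genes were not searched. They are shown because the report asks how far these genes moved with other interferon genes. Capitals mark an ISRE core (GAAANNGAA).
Ifitm1, chr7:140968016-140968075, plus strand: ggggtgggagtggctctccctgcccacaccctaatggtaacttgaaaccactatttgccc
Ifitm2, chr7:140955962-140956021, minus strand: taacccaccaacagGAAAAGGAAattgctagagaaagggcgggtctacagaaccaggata
Ifitm3, chr7:141010745-141010804, minus strand: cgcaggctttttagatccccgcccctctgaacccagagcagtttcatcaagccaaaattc
Ifitm6, chr7:141016893-141016952, minus strand: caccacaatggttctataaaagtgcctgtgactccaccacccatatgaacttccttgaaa
In Ifitm3 both matches lay just after the listed start, in this stretch of 30 bases.
Ifitm3, chr7:141010715-141010744, minus strand: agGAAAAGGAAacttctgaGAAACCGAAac
GAAANNGAA was searched on both strands of a window around each start that takes in the stretches above. Ifitm2 held GAAAAGGAA at positions -46 to -38. Ifitm3 held the same GAAAAGGAA at positions 3 to 11 and GAAACCGAA at positions 20 to 28, counted from the start as position 1. Ifitm1 and Ifitm6 held none. Of 32851 windows of the same length, 2812 (8.56%) held the motif. The gamma-activated sequence TTCNNNGAA was in 8.3% of the windows. It was found in Ifitm3 as TTCTGAGAA at positions 14 to 22, which overlaps the second ISRE core, and in Ifitm6 as TTCCTTGAA at positions -10 to -2. A match describes letters in a window and not a bound site.

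The cells were placed in groups by markers at an FPKM (fragments scaled to transcript length and library size) of 10 or more. There were 14 alveolar-macrophage marker cells with at least 2 of Ear1, Car4 and Plet1. Of the others, 10 were C1q cells (at least 2 of the complement genes C1qa, C1qb and C1qc), 12 were class II cells (at least 2 of H2-Aa, H2-Ab1 and H2-Eb1), 31 were classical monocyte marker cells (at least 2 of Ly6c2, Plac8 and Ccr2) and 6 remained. The groups were assigned in that order, so a class II cell can also carry monocyte genes. On a wider list of 15 alveolar macrophage markers, 12 of the 14 cells held 8 to 13 and none of 10 classical monocyte markers. The first list includes Ear1, Car4 and Plet1 and the second Ly6c2, Plac8 and Ccr2, so part of each count follows from the group rule. Cells 13 and 73 held 8 and 6 alveolar markers together with 7 and 8 monocyte markers, so their label is mixed, and values are given with and without them. The files do not say whether such a capture held 1 cell or more, and this was not tested.

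Depth was estimated from the deposited counts at 347003 to 3485929 mouse fragments per cell, with a median of 1408833. Cells held 1044 to 3745 detected genes (FPKM of at least 1). The alveolar-macrophage marker cells had a median of 1216950 fragments and 2740 detected genes, and the other 59 cells 1421052 fragments and 2163 genes. Endothelial markers (at least 3 of 10) were present in cells 2, 38 and 54. No cell held 3 markers of the epithelial, neutrophil, lymphoid, mast cell, fibroblast or erythroid lists.

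Ifitm3 and Ifitm2 were among the abundant transcripts of most cells and were close to absent from the alveolar-macrophage marker cells. Over all cells, Ifitm2 was detected in 61 of 73 (83.6%, exact 95% binomial interval 73.1 to 91.2), Ifitm3 in 55 (75.3%, 63.9 to 84.7), Ifitm6 in 35 (47.9%, 36.1 to 59.96) and Ifitm1 in 6 (8.22%, 3.08 to 17.04). These intervals cover counting of cells only. The family was graded, with Ifitm2 and Ifitm3 near each other, Ifitm6 lower and Ifitm1 rare. FPKM is scaled per transcript length, so levels can be set side by side. In the 59 other cells the mean FPKM was 1921 ± 1638 (SD) for Ifitm3, 1526 ± 1111 for Ifitm2, 149 ± 246 for Ifitm6 and 23.5 ± 99.4 for Ifitm1. Ifitm3 and Ifitm2 thus differed by less than the spread between cells. Summed, the 4 genes took a median of 0.887% of all mouse FPKM in those cells and up to 2.24%, and at most 0.01% in the 12 alveolar-macrophage marker cells without monocyte markers.

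**Figure D1:**
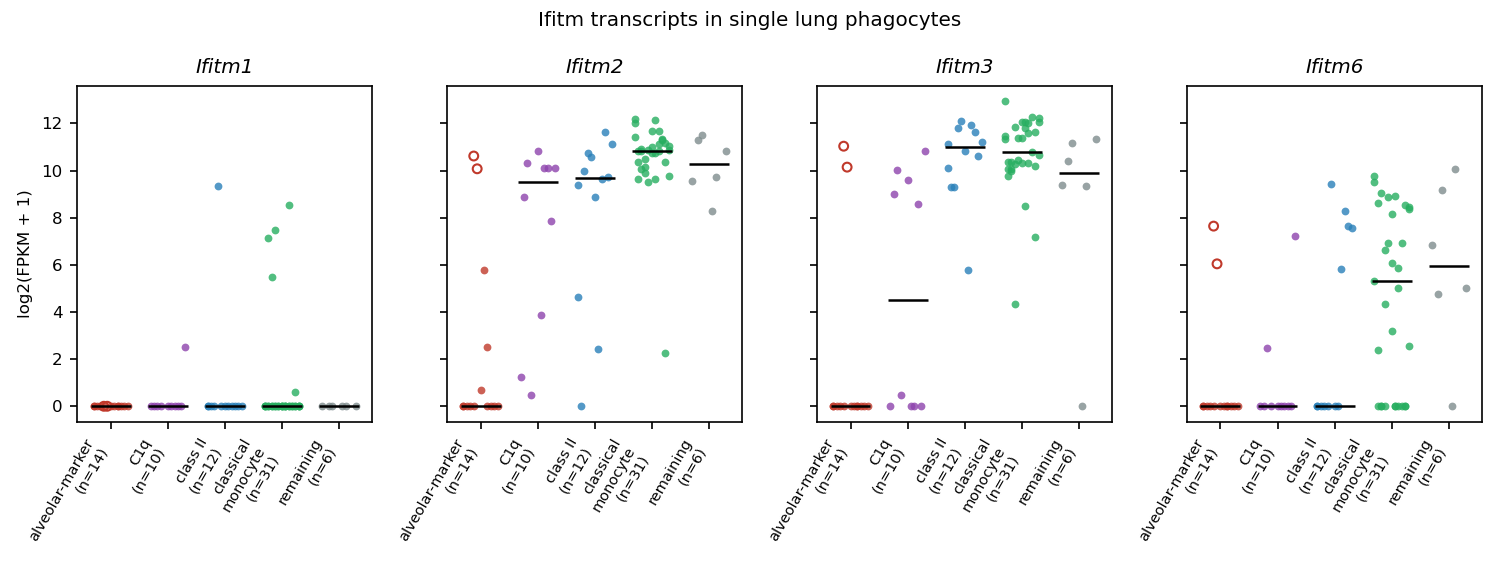
Levels of the 4 Ifitm genes, as log2(FPKM + 1) on the vertical axis, with 1 point per cell and the 5 marker groups along the horizontal axis; black lines are medians, and open red circles are the alveolar-macrophage marker cells 13 and 73, which also held monocyte markers. For Ifitm3 the other 12 alveolar-macrophage marker cells sit at 0 while all 31 classical monocyte marker cells are above 0.

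Ifitm3, the endosomal antiviral factor, stood at 0 FPKM in 12 of the 14 alveolar-macrophage marker cells. It stood at 2094 in cell 13 and 1131 in cell 73. In the 59 other cells it ranged from 0 to 7855 with a median of 1365, and 53 of them had it detected. In the 12 cells at 0, 3 fragments of Ifitm3 would have been worth 1.53 to 10.9 FPKM (median 3.74), and Actb, the cytoskeletal actin, stood at 6072 to 30073 FPKM. A count of 0 of 12 cells allows a share of up to 25% by a floor of 3 cells, and up to 26.5% by the exact 95% binomial limit. It was also not detected in 6 of the 59 others.

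Ifitm2 was at 0 in 9 of the 12. It stood at 53.7 FPKM in cell 19 (100 fragments), 4.66 in cell 12 (3 fragments) and 0.62 in cell 35 (1 fragment). Cells 13 and 73 had 1569 and 1077. The 59 other cells ranged from 0 to 4609 with a median of 1334, and 57 had it detected. So cell 19 held a clear Ifitm2 signal, low beside most other cells, with no Ifitm3 fragment.

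Ifitm6, a rodent member of the family, was at 0 in all 12 and stood at 199 in cell 13 and 64.9 in cell 73. In the other cells it ranged from 0 to 1057 with a median of 8.04, and 33 of 59 had it. Ifitm1 was at 0 in all 14 alveolar-macrophage marker cells. Since 53 of the 59 other cells also lacked it, the groups cannot be told apart for Ifitm1.

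The difference was summarised as the mean log2(FPKM + 1) of the 14 alveolar-macrophage marker cells minus that of the 59 others, a scale that understates the change of low genes. It was -7.94 for Ifitm3, -7.38 for Ifitm2, -2.88 for Ifitm6 and -0.70 for Ifitm1. Leaving out cells 13 and 73 made these -9.45, -8.75, -3.86 and -0.70. Of the 6151 genes detected in at least 8 cells, 129 (2.1%) were lower by at least 2 log2 units and 324 (5.27%) higher by as much. 3 of the 4 members passed the filter of 8 cells, and all 3 were among the lower genes. Ifitm1 did not pass the filter. The call of Ifitm6 was not stable: with a pseudocount of 10 in place of 1 its difference was -1.63, short of 2 log2 units. Those of Ifitm3 and Ifitm2 were then -5.44 and -5.16. Ifitm3 had the lowest difference of the 6151 genes, Ifitm2 the next and Ifitm6 the 49th. The members were chosen for this contrast, so the ranks and the count describe the choice and support nothing further. The median difference of all 6151 genes was 0.12.

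Cells at the edge of the marker rule were mixed. Just inside it, cell 21 (Ear1 30.9, Car4 12.98 and Plet1 985 FPKM) and cells 29 and 85, whose Car4 was below 1 FPKM, had all 4 Ifitm genes at 0. Cell 73 was also just inside (Ear1 155, Car4 0.94 and Plet1 11.6) and had Ifitm3 at 1131 and Ifitm2 at 1077. Just outside it, with 1 of the 3 markers, stood 5 cells. Cell 25 (Plet1 231) had Ifitm3 at 0.39, and cell 83 (Car4 64.7) had Ifitm2 at 307 and Ifitm3 at 0. Cell 64 (Car4 347) had Ifitm3 at 637 and Ifitm2 at 0, the only cell with Ifitm3 alone, and it held 8 of the 15 alveolar markers. Cell 75 (Ear1 23.2), also with 8 alveolar markers, had Ifitm3 at 1615. Cell 2 had Car4 at 997 and Ifitm3 at 2247 and carried endothelial genes, among them Cdh5, a junction protein of endothelium, at 66.7.

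Outside the alveolar-macrophage marker cells, Ifitm3 followed the marker groups. It was detected in all 31 classical monocyte marker cells, where it ranged from 19.2 to 7855 FPKM with a median of 1790. It was also detected in all 12 class II cells, from 54.7 to 4394 with a median of 2034. The C1q cells were divided, with 5 of 10 detected and a median of 190. In the 6 remaining cells 5 had it, with a median of 1019. By median the order was class II, classical monocyte marker, remaining, C1q and alveolar-macrophage marker cells. The ranges of the first 3 groups overlapped widely. Class II cells 16, 22, 26, 42, 48, 71 and 86 also met the monocyte marker rule, and cells 2 and 54 carried endothelial markers. The class II cells with neither, 28, 64 and 95, had Ifitm3 at 54.7, 637 and 1119, below the classical monocyte marker median of 1790. The rank of the class II group thus rested on cells with mixed markers.

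Ifitm2 was less divided by group. It was detected in 31 of 31 classical monocyte marker cells (median 1838), 6 of 6 remaining cells (1320), 11 of 12 class II cells (821) and 9 of 10 C1q cells (789). The groups overlapped throughout, and the C1q cells ranged from 0.4 to 1821. The order of class II and classical monocyte marker cells was thus the opposite of that for Ifitm3, with overlapping ranges in both genes. Ifitm6 was detected in 21 of 31 classical monocyte marker cells (median 39.1), 5 of 6 remaining cells (72.7), 5 of 12 class II cells and 2 of 10 C1q cells, the last pair of groups with a median of 0. Its highest value, 1057, was in cell 27 and the next, 879, in cell 68. Of the remaining cells, 27, 41, 57 and 93 held 8 to 10 markers of non-classical monocytes, the patrolling type, and Treml4, one of these markers, at 92.2 to 730 FPKM. Ifitm6 was 1057, 569, 31.7 and 26.02 in these 4 cells.

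Ifitm1 was found in 6 cells. It stood at 641 FPKM in cell 22 (class II), at 375, 179, 142 and 43.5 in cells 69, 46, 37 and 31 (classical monocyte marker cells) and at 4.75 in cell 30 (C1q). All 6 cells also held Ifitm2, at 1110 to 1838 FPKM, and Ifitm3, at 1060 to 3701 FPKM, as did many cells without Ifitm1.

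Within the C1q cells, Ifitm3 was low where C1qa, a chain of the first complement component, was highest. C1qa stood at 1134, 1334, 1451 and 1748 FPKM in cells 11, 15, 32 and 50, all 4 with Ifitm3 at 0. In cells 94, 84 and 65, C1qa stood at 344, 145 and 503 and Ifitm3 at 380, 518 and 783. In cells 38 and 30, C1qa was 6.6 and 48.2 and Ifitm3 1049 and 1842. Cell 25 broke the pattern, with C1qa at 199.5 and Ifitm3 at 0.39. The other chains did not split the cells in this way, although cells 32 and 50 were highest for both. C1qb and C1qc stood at 3798 and 781.5 FPKM in cell 65, which held Ifitm3. They stood at 2225 and 420 in cell 15, which did not. Cells 38 and 30 also held Plac8, a monocyte gene, at 1669 and 2547 FPKM, and cell 30 held Ly6c2 at 1816. Cell 38 further carried 3 endothelial and 8 non-classical monocyte markers. What these other programmes contributed to Ifitm3 was not tested. Cell 15 had Ifitm2 at 1108 FPKM with Ifitm3 at 0, the widest gap of that kind.

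**Figure D2:**
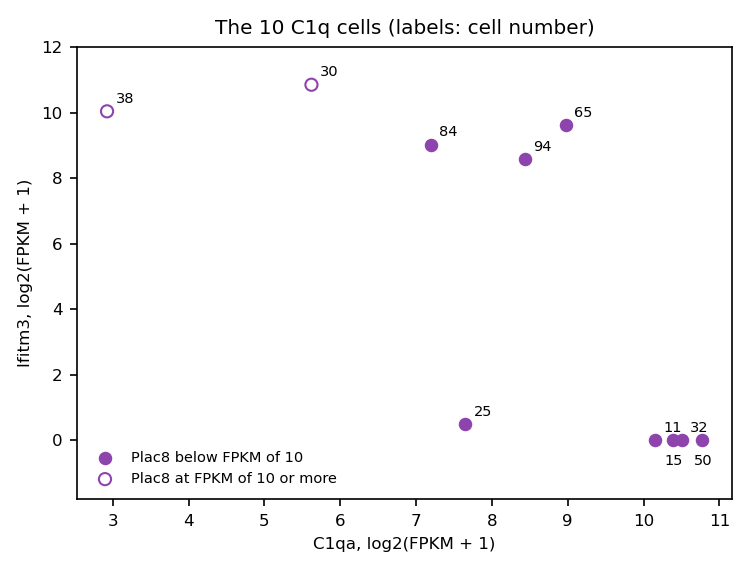
Ifitm3 against C1qa in the 10 C1q cells, both as log2(FPKM + 1), with cell numbers beside the points; open circles held Plac8 at an FPKM of 10 or more. The 4 cells with C1qa of 1134 FPKM or more lie at 0 for Ifitm3, and 5 cells with less C1qa lie between 380 and 1842 FPKM.

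Ifitm2 and Ifitm3 usually occurred together. Of the 73 cells, 54 held both, 7 only Ifitm2, 1 only Ifitm3 and 11 neither. All 35 cells with Ifitm6 held Ifitm2 and Ifitm3 as well, and 4 cells held all 4 genes. Across the 59 other cells the Spearman rho was 0.68 for Ifitm2 with Ifitm3, 0.45 for Ifitm2 with Ifitm6 and 0.43 for Ifitm3 with Ifitm6. With Ifitm1 it was 0.06 to 0.08. Within the 31 classical monocyte marker cells alone the first stayed at 0.63, and those with Ifitm6 were 0.23 and 0.13, too weak in sparse data to count as a relation. Values of 1 cell share its library and its scaling, and on FPKM rescaled to 1 total per cell the rho of Ifitm2 with Ifitm3 was 0.56. The summed Ifitm level had a rho of -0.06 with mouse fragments, -0.06 with detected genes and -0.12 with mouse fragments per spike-in fragment over the same 59 cells.

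The balance between Ifitm3 and Ifitm2 varied from cell to cell. In the 50 cells with both at an FPKM of 100 or more, the ratio of Ifitm3 to Ifitm2 ran from 0.34 to 4.98 with a median of 1.09, and 28 cells were above 1 and 22 below. It was above 1 in 7 of 9 class II cells (median 2.08) and in 16 of 29 classical monocyte marker cells (median 1.09). The medians were 0.81 in 5 C1q cells and 0.78 in 5 remaining cells. The highest ratios were in cells 16 (4.98), 20 (4.86), 54 (3.92) and 2 (3.38), and the lowest in cells 94 (0.34), 65 (0.43) and 76 (0.46). Cells 54 and 2 were the class II cells with endothelial markers, and the rest of the 9 class II cells also met the monocyte marker rule. The part of these other markers in the ratio was not tested. All these groups overlapped.

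**Figure D3:**
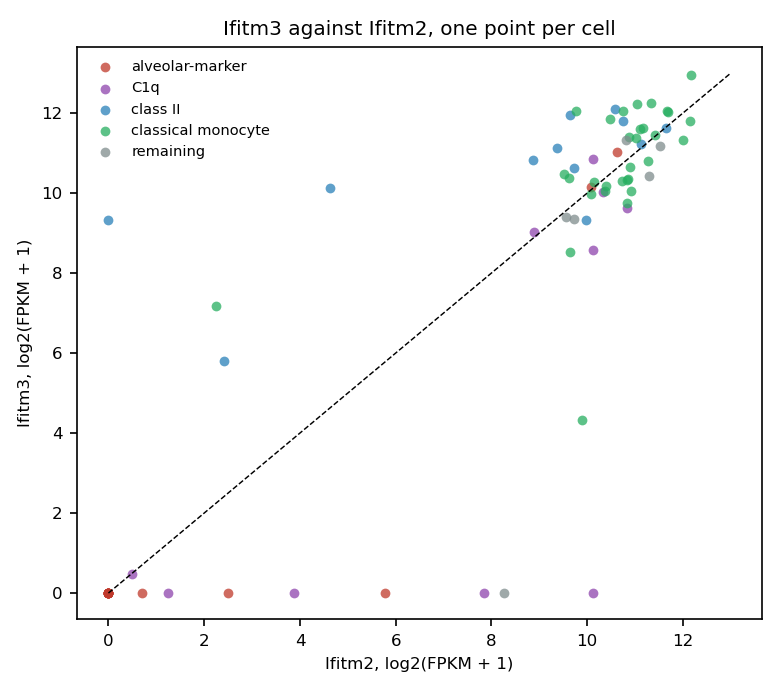
Ifitm3 against Ifitm2, both as log2(FPKM + 1), with 1 point per cell coloured by marker group and a dashed line where both are equal. Most cells form a cloud near the line at high levels of both genes, a row of cells at the bottom holds Ifitm2 with little or no Ifitm3, and 1 class II cell (cell 64) lies on the left edge with Ifitm3 alone.

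Identical stretches of the members, whose reads the counting could split, were counted in their transcripts. Stretches with mismatches were not counted. Of 631 stretches of 25 bases in Ifitm2, 50 (7.92%) also occurred in Ifitm3. Of 606 stretches of 50 bases in the Ifitm2 transcript (GENCODE M21), 20 (3.3%) also occurred in Ifitm3, and of 629 in Ifitm3, 15 (2.38%) occurred in Ifitm1. Ifitm6 shared none of that length with the others. No stretch of 100 bases was shared between members. Read length is not given in the sources used here, so these shares cannot be narrowed to 1 value.

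The neighbours of the 4 genes were detected in too few cells to be set beside the Ifitm genes. Among the other genes that lie near the members and have a row in the table, the most often detected was Ric8a, in 18 cells. Only 12 of these were among the 59 other cells, so a fall of 2 log2 units could hardly appear. Their differences between alveolar-macrophage marker and other cells ran from -0.21 (Pgghg) to 1.06 (Bet1l) on the log2 scale. The family members Ifitm5 and Ifitm10 were detected in 2 and 1 cells at up to 7.7 and 8.47 FPKM, and Ifitm7 in none.

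**Figure D4:**
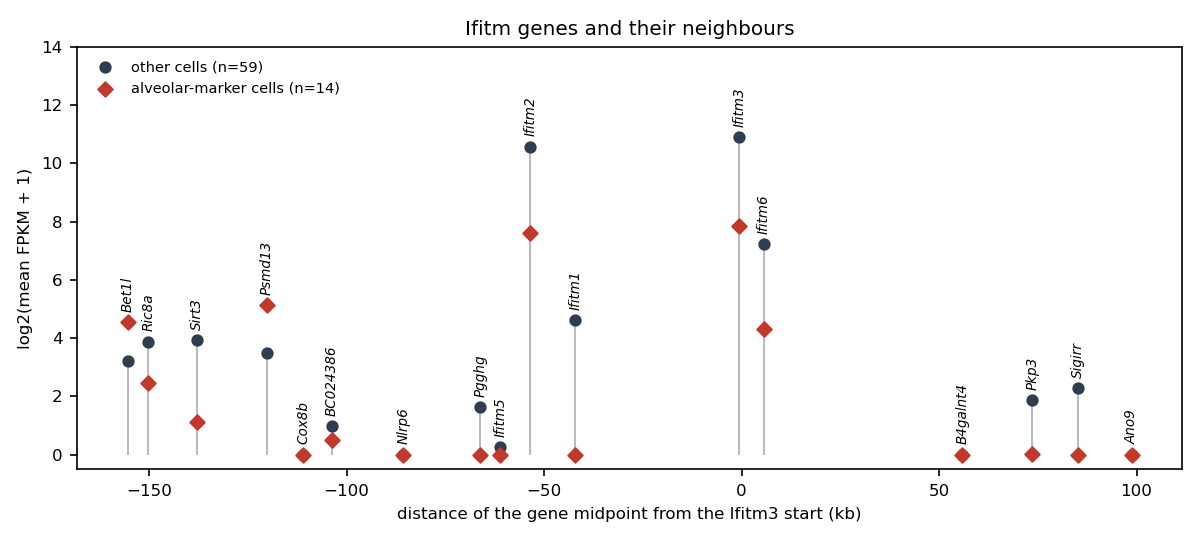
Mean level, as log2(mean FPKM + 1), of each gene near the Ifitm genes by the distance in kb of its midpoint from the Ifitm3 start, in 59 other cells (dark circles) and 14 alveolar-macrophage marker cells (red diamonds). Ifitm2, Ifitm3 and Ifitm6 stand above their neighbours in the other cells; their red diamonds rest almost wholly on cells 13 and 73.

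Most type I interferon response genes differed in the same direction as the Ifitm genes, by a much smaller amount. Of 43 genes of a type I interferon response list, 24 were detected in 8 or more cells. 2 of these were lower in the alveolar-macrophage marker cells by at least 2 log2 units and none was higher, beside 2.1% and 5.27% of all genes; 18 of the 24 differences were below 0, with a median of -0.70, while 43.6% of all 6151 genes were below 0, with a median of 0.12. Many classical members were rare everywhere: Ifit1 was detected in 2 cells, Mx1 in 1 and Rsad2, which encodes viperin, in 2. Of 21 interferon genes 20 were detected in no cell, and Ifnk in 2 cells.

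Both lower genes of the list were abundant in the other cells. Ly6e encodes an interferon-induced surface protein anchored by a lipid. It stood at a median of 16.9 FPKM in the 14 alveolar-macrophage marker cells, with a difference of -4.20 from the other cells. The medians were 1140 in the 6 remaining cells, 735 in class II, 671 in classical monocyte marker and 204 in C1q cells. The 12 cells without monocyte markers had a median of 3.3 and a maximum of 292, so they overlapped with the other groups. Ifi27l2a, another interferon-induced gene, was detected in 3 of the 14 cells and 40 of the 59 others, a difference of -3.77. In the 12 cells it was found in 1, at 16.4 FPKM, and in the 6 remaining cells also in 1. Irf7, the regulator that amplifies type I interferon production, was at 0 in all 14 cells, but only 10 of the 59 others had it. Without cells 13 and 73, Ifi203 and Ifi204, which belong to a family of interferon-inducible DNA-binding proteins, also passed 2 log2 units, at -2.10 and -2.15.

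Of 22 interferon gamma response genes, 10 were tested, with a median difference of -0.31. Psmb8, a subunit of the immunoproteasome, was lower (-2.33), with a median of 1.2 FPKM in the 14 cells against 81.0 in classical monocyte marker cells. Cd274, which encodes the checkpoint ligand PD-L1, was higher (2.17). It was detected in 12 of 14 alveolar-macrophage marker cells and 10 of 59 others, at a median of 9.2 FPKM in the former. Neither call was stable: no gene of this list was lower or higher by 2 log2 units with a pseudocount of 10 or with 1 alveolar marker enough, and none was higher when all 3 markers were required. Of 17 receptor and signalling genes 16 were tested, with a median of -0.07. Only Ifngr1, the ligand-binding chain of the interferon gamma receptor, passed the fold (-3.05), with medians of 8.1 FPKM in alveolar-macrophage marker and 183 in classical monocyte marker cells. The type I receptor chains Ifnar1 and Ifnar2 differed by -1.07 and 0.22.

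With all 14 alveolar-macrophage marker cells, no restriction factor of another family passed the fold in either direction. The median of the 10 tested, of 18 listed, was -0.36. The lowest were Slfn2, of the Schlafen family, at -1.96 and Samhd1, which degrades the nucleotides that viruses need, at -1.74; the former was still detected in 12 of 14 alveolar-macrophage marker cells. Without cells 13 and 73 these were -2.19, past the fold, and -1.94. Ch25h, whose product makes the antiviral 25-hydroxycholesterol, was in too few cells for the filter, and was found in 5 alveolar-macrophage marker cells and 2 others. Of 6 genes whose proteins act on IFITM3, 5 were tested, none passed the fold and their median was 0.48. Among them Zdhhc20, a palmitoyltransferase, was detected in 12 of the 14 cells. Of 10 housekeeping genes Hprt passed the fold, upward (2.33), and their median was 0.11. Without cells 13 and 73 Gapdh passed it as well (2.26, from 1.97).

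Within the 59 other cells, the summed Ifitm level moved with few of the interferon genes. Its Spearman rho with the mean level of the type I list was 0.32, and 0.23 without Ly6e. In the 31 classical monocyte marker cells these were 0.19 and 0.15. The highest values for single type I genes were Ly6e 0.65, Sp100 0.34, Isg20 0.30, Trim30a 0.26 and Oas1a 0.24. Apart from Ly6e these are weak values in sparse data and make no finding. The median over the 21 genes with enough cells was 0.16, beside -0.01 over 5228 genes. It was also 0.16 over 9 housekeeping genes, whose list level had a rho of 0.26. The type I list thus did not stand apart from housekeeping genes. For the interferon gamma list the rho was -0.14, for the receptor list 0.19 and for the list of other restriction factors 0.42. Among the other restriction factors Samhd1 had 0.43, and 0.17 within the classical monocyte marker cells. In 7 of these cells at least 15 of the 43 type I genes were detected, a number chosen after the values were seen. Their summed Ifitm FPKM was 2284 in cell 54, which held the most (25 genes) and carried endothelial markers, and 5083, 13190, 7270, 8566, 3039 and 6686 in cells 20, 44, 53, 24, 89 and 71. All but cell 54 lay above 2999, the median of the 59 cells, and cell 44 had the highest sum of all. Over all 59 cells the rho of the Ifitm sum with the number of type I genes detected was only 0.21. That number had a rho of 0.28 with the number of all detected genes. Of the alveolar-macrophage marker cells, the mixed cell 13 held 20 type I genes, with a sum of 3862, and the other 13 held 2 to 10.

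**Figure D5:**
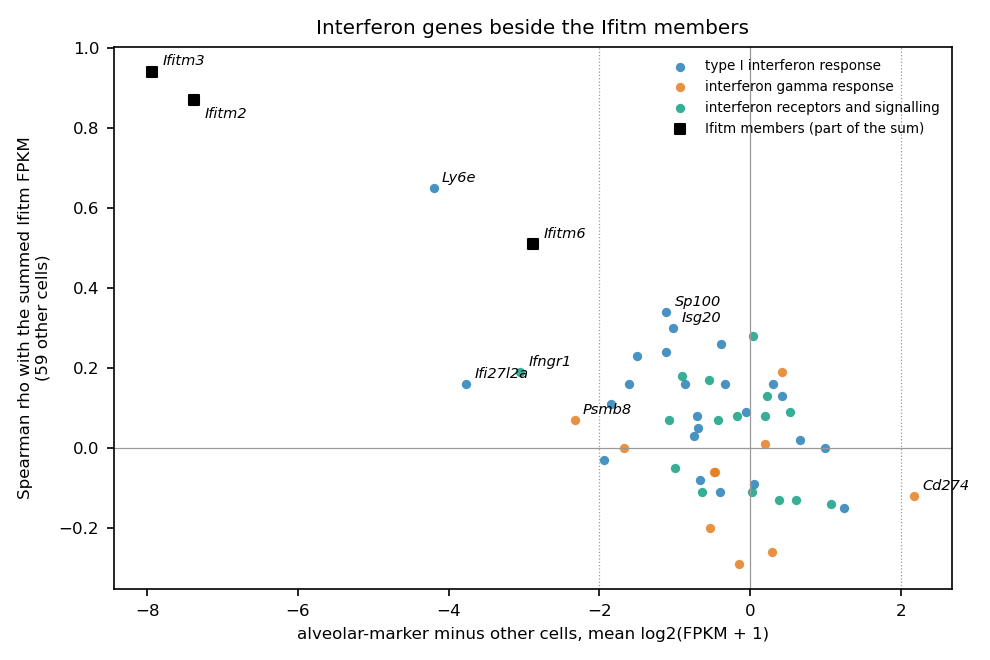
Each point is an interferon gene detected in at least 8 cells, placed by its difference between alveolar-macrophage marker and other cells (mean log2(FPKM + 1), horizontal) and its Spearman rho with the summed Ifitm level in the 59 other cells (vertical); dotted lines mark 2 log2 units and black squares the Ifitm genes, which are part of the sum. Ly6e (-4.20, 0.65) lies nearest to the Ifitm genes, and most interferon genes lie within 2 log2 units of 0.

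The genes with the most similar pattern were ranked by Spearman rho of FPKM across the 59 other cells, among 5228 genes detected in at least 8 of them. For Ifitm2 they were Ifitm3 (0.68), the lysozyme gene Lyz2 (0.64), Ms4a6b (0.60), the adaptor Tyrobp (0.59) and Samsn1 (0.56). For Ifitm3 they were Ifitm2 (0.68), Ms4a6b (0.61), Ly6e (0.59), the glutathione reductase Gsr (0.59) and the monocyte surface gene Ly6c2 (0.59). For Ifitm6 they were Plac8 (0.58), Slc44a2 (0.54), Gpr141 (0.54), the interleukin 17 receptor chain Il17ra (0.52) and Klra2 (0.52). Within the 31 classical monocyte marker cells alone, Ly6c2 with Ifitm3 fell to 0.25 and Plac8 with Ifitm6 to 0.35. For Ifitm3, Ms4a6b, Ly6e and Gsr fell to 0.36, 0.40 and 0.30. For Ifitm2, Ms4a6b and Tyrobp fell to 0.40 and 0.33, while Lyz2 stood at 0.56 and Samsn1 at 0.61. For Ifitm6, Slc44a2 and Klra2 stood at 0.42 and 0.46, Gpr141 at 0.51 and Il17ra at 0.66. The 31 cells are fewer and were chosen by monocyte markers, and what lowered the values that fell was not tested. Some of these genes were not lower in the alveolar-macrophage marker cells: the difference was 0.03 for Lyz2, 0.34 for Tyrobp and 0.66 for Gsr. Ms4a6b was, at -2.88, with 0 FPKM in the 12 cells without monocyte markers. It was also detected in only 1 of 10 C1q cells, at 4.2 FPKM.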

How the data were processed

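The members, marker lists and gene lists were chosen with earlier results of these data known. Per the submitters' processing notes, CASAVA 1.8, TopHat2 2.1.0, Cufflinks 2.2.1 and Cuffnorm were used with the mm10 build; the annotation and read length are not given in the sources used here. Deposited by the authors were an FPKM table, used for all levels, and a table of scaled count-like values, treated as a signal that is proportional to fragments. Of 100696 values below 20 steps in the latter, 99.6% lay within 0.1 of a whole multiple of the smallest common step of their cell, which gave the depth estimates. Spike-in rows were set apart, and 0 columns stayed without a sample. No doublet caller was run on the 73 cells.

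A gene counted as detected at an FPKM of 1 or more. Differences are of mean log2(FPKM + 1), over genes detected in at least 8 cells, and 2 log2 units is a 4-fold change. Correlations are Spearman's. Named genes were the members, the group markers, list genes past the fold or among the 5 highest correlations of their list, the 5 genes most like each member, and genes within 100 kb; other names (among them Ifit1, Mx1, Rsad2, Irf7, Ch25h, Slfn2, Zdhhc20, Actb and marker genes of mixed cells) were chosen after their values were seen. Python 3.11.15, pandas 2.3.3, numpy 2.4.6 and scipy 1.17.1 were used, and the scripts were tested on simulated data. RefSeq supplied positions and promoters and GENCODE M21 the transcripts.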

Additional observations from a re-analysis of the deposited data

How the results depend on the processing

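Of 192 alternative values, 166 were scored as kept, 26 as moved and 0 as reversed. Kept meant within the exact binomial interval for shares, within 0.1 for correlations and within 1.5 times the reported value for counts. For differences it meant a change smaller than the spread between cells. This limit was wide: the SD of Ifitm6 in the 59 other cells was 3.83 log2 units. Ifitm6 at -1.63 with a pseudocount of 10, against -2.88, was thus scored as kept although it fell short of 2 log2 units. A score of kept therefore does not mean that a call was stable. The settings were other detection limits and pseudocounts, the scaled count-like table, rescaled FPKM, thinning to 347003 fragments, other alveolar marker rules, Pearson's r, other sets of cells, and, chosen after seeing the data, leaving out cells 13 and 73. With detection at an FPKM of 100, Ifitm2 was found in 88.1% and Ifitm6 in 33.9% of the other cells. With 1 alveolar marker enough, Ifitm2 was found in 100% of the other 54 cells. Ifitm3 and Ifitm6 were each in 0 of 12 alveolar-macrophage marker cells (0%) without cells 13 and 73, and in 0 of 11 (0%) with markers at an FPKM of 100; with 1 marker enough, Ifitm3 was in 5 of 19 (26.3%) and Ifitm2 in 7 of 19 (36.8%). The rho of Ifitm2 with Ifitm3 was 0.56 on rescaled FPKM and 0.79 over all 73 cells. Those with Ifitm6 were 0.23 (Ifitm2) and 0.13 (Ifitm3) in classical monocyte marker cells and 0.57 and 0.56 over all cells. The rho of the Ifitm sum with the type I list was 0.19 in classical monocyte marker cells and 0.55 over all cells. With the interferon gamma list the rho was 0.05 over all cells against -0.14, a change of sign that was counted as moved. The values over all cells include the cells chosen for low Ifitm levels. Type I genes lower by 2 log2 units numbered 5 with a pseudocount of 0.1, 4 without cells 13 and 73, and 4 with markers at an FPKM of 100, against 2. Interferon gamma genes lower numbered 2 with a pseudocount of 0.1, 0 with 10, 0 with 1 marker enough and 2 with all 3 markers, against 1; those higher numbered 0 with a pseudocount of 10, 0 with 1 marker and 0 with all 3, against 1. The cause of these moves was not tested.

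No paired analysis was possible because all cells form 1 group. Cells of 1 mouse carry no error between animals, so none of the values extends beyond these cells. Depth limits what a value of 0 says to a level below 3 fragments in the library of that cell. Loss of transcripts before sequencing was not measured, so a 0 need not mean that the cell lacked the transcript.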
